A study of Mus musculus with 2 samples.

Results

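The genes described here encode the proteins of the cytosolic ribosome. They were taken by symbol from the deposited gene list: every gene named Rpl or Rps with a number (and at most 1 of the letters a, x, y or l), plus Rplp0, Rplp1, Rplp2 and Rpsa, with at least 100 unique molecular identifiers (UMIs, each a counted RNA molecule) over both libraries. The rule matched 80 genes, and 78 of the 32285 listed genes were kept as members, 47 of the large and 31 of the small ribosomal subunit. Rpl39l was just inside the limit with 163 UMIs. Rpl3l was just outside with 56, and Rpl10l had 0 in both libraries, for which the limit of a count of 0 is 3 UMIs. The symbol rule leaves out 8 genes that belong to the same machinery or are close copies of members, among them Fau, Rack1 and Rps3a1, and these are described separately.

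The cytosolic ribosome translates all nuclear messages and is built from ribosomal RNA and one copy of nearly every protein of this family, so the messages are made at similar levels in most cells and together form one of the largest blocks of a cell's messenger RNA. Most of them begin with a run of pyrimidines at the very 5′ end, the terminal oligopyrimidine (TOP) motif, through which their translation is controlled by the PI3K, AKT and mTOR pathway. Rps6, one of the members, encodes the small-subunit protein whose phosphorylation is widely used as a readout of that pathway.

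A control and a mutant library of single cells were compared. The control library came from Isl1-Cre;R26R-eYFP embryos and the mutant library from Isl1-Cre;R26R-eYFP;Pik3caH1047R embryos, both at stage E13.5 (embryonic day), on a mixed C57BL/6J and Crl:CD1(ICR) background, with 3 embryos pooled in each. Both groups carry the Cre driver and the yellow fluorescent reporter, which marks cells with a history of Isl1 expression. Cells were sorted on that reporter from the tissue above the liver, and the purity of the sort was not tested. The mutant group differs by the Cre-dependent activating allele of Pik3ca, the catalytic subunit of PI3K. With 1 library for each genotype no test between genotypes was possible: no p-value is given, and each interval below covers counting error only, so a difference between libraries cannot be told apart from a difference between the pools of embryos.

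The sequences around the annotated starts of 5 members on which the results turn are given here. The libraries were read from the 5′ end, and pyrimidine runs are common near the starts of members. Each window holds 30 bases, 15 before the RefSeq start (build GRCm38.p6) and 15 from it, 5′ to 3′ on the gene's strand, with the longest run of at least 5 pyrimidines that begins with C in capitals. Rps26 lies on the minus strand of chromosome 10, the window spanning chr10:128626492-128626521. Rps18 lies on the minus strand (chr17:33955651-33955680), Rps2 on the plus strand (chr17:24720048-24720077), Rps6 on the minus strand (chr4:86857353-86857382) and the first of 2 listed starts of Rps27l on the plus strand (chr9:66946071-66946100).
Rps26: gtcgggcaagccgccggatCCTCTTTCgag
Rps18: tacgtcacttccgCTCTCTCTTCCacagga
Rps2: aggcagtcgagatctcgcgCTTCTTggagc
Rps6: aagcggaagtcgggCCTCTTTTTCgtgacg
Rps27l: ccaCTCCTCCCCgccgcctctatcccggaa
A promoter was listed for 58 of the 78 members. A run of 8 or more pyrimidines that begins with C lay within 20 bases of a listed start in 29 of the 58 (50%), against 14.8% of all 27025 genes listed. At the limit of 5 used for the capitals, it was 79.3% of the members and 50.7% of all genes. The capitals span the listed start in Rps18 and Rps6, begin after it in Rps26 and Rps2 and end before it in Rps27l. They need not mark the 5′ end of the message. The letters CTTTC, searched from 50 bases before to 50 after the start, were on the gene's strand in 55.2% of the members and in 14.6% of all genes, and on either strand in 63.8% and 26.2%. CGGAAG was found on either strand in 39.7% of the members and in 10.4% of all genes, and CTTCC, which overlaps the reverse complement of CGGAAG by 5 letters, in 65.5% and 41.1%. These matches describe letters in a window and not sites in use.

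The control library held 4505 cells and 66935720 UMIs and the mutant library 5357 cells and 73915525 UMIs. Cells with over 2000 and under 9000 genes and under 10% mitochondrial UMIs were kept, 2783 in the control and 3489 in the mutant library, with medians of 20412 and 16839 UMIs per cell, and 28 barcodes occurred in both libraries. Clusters were formed with 309 genes left out of the variable genes. These included the members, mitochondrial genes, mitochondrial ribosomal protein genes and the translation and p53 lists described below. Cell cycle genes were not left out as such, but cell cycle scores were regressed out. Clusters were named only from marker lists. A total of 7 classes had at least 50 cells in both libraries and were compared: endothelial (EC-like), mesenchyme-like, branchial muscle-like, epithelium-like, neuron-like, cardiomyocyte-like and mesothelium-like cells, with between 4 and 12 of their listed markers raised in each of their clusters. The EC-like class held 147 control and 695 mutant cells. By the expression of X-linked and Y-linked sex marker genes, 95.5% of the control cells and 33.6% of the mutant cells were female-like and 53.3% of the mutant cells male-like, so that the libraries also differ in the sex of their cells.

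The family took a stable part of the RNA in most classes, and its level set the classes apart far more than it did the libraries. Over all kept cells the 78 members made up 17.7% of UMIs in the control and 16.9% in the mutant library. Among the 7 classes branchial muscle-like cells had the highest share, 20.8% in the control and 20.4% in the mutant library. Neuron-like cells had the lowest, 8.27% and 10.3%. Between these lay EC-like cells with 15.5% and 15.9%, mesenchyme-like cells with 14.0% and 14.9%, epithelium-like cells with 17.03% and 16.89%, cardiomyocyte-like cells with 14.9% and 15.2% and mesothelium-like cells with 17.3% and 14.5%. The branchial muscle-like class joined unlike clusters. Its largest (546 control and 599 mutant cells) had 22.6% and 21.9%. Another (147 and 112 cells) had 5.26% and 5.55%, with 92.5% and 90.2% of its cells under 8%. As a log2 ratio of mutant over control the share in EC-like cells was 0.04 (95% interval of the counts 0.03 to 0.04), a 1.03-fold higher share, and it lay between -0.02 and 0.10 in the mesenchyme-like, branchial muscle-like, epithelium-like and cardiomyocyte-like classes. Only the neuron-like class, with 0.31 (0.31 to 0.32), and the mesothelium-like class, with -0.26 (-0.27 to -0.25), had ratios of over 0.2 in size among the 7 classes. Outside these classes, an unnamed cluster had 19.5% in the control and 16.9% in the mutant library, and another 19.2% and 21.5%. Neural crest-like cells (54 control and 25 mutant) had 14.1% and 16.3%, and mural-like cells (37 and 25) 12.2% and 12.5%. The subunits moved alike: in neuron-like cells the large-subunit members had a log2 ratio of 0.31 and the small-subunit members also 0.31, and in mesothelium-like cells these were -0.25 and -0.26.

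**Figure D1:**
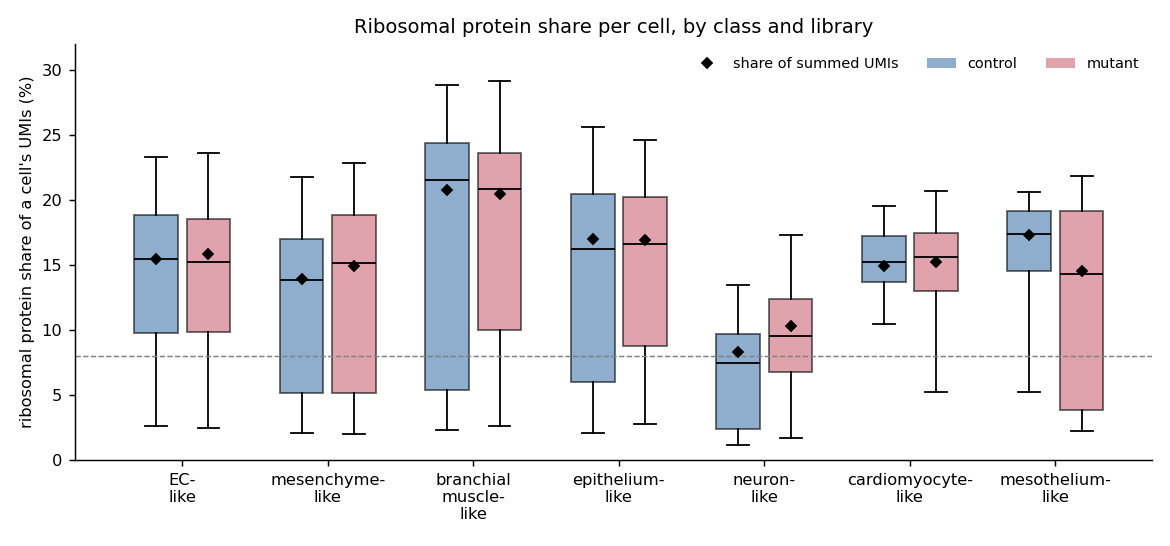
Share of each cell's UMIs that belong to the 78 ribosomal protein genes (percent, y axis) in the 7 classes (x axis) and both libraries. Boxes give the median and quartiles over cells, whiskers the 5th and 95th percentiles, diamonds the share of the summed UMIs and the dashed line 8%. Branchial muscle-like cells are highest at 20.8% and 20.4%, neuron-like cells lowest at 8.27% and 10.3%.

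Cells with a low share were found in both libraries, and the values of this paragraph pool all kept cells. A share under 8% was found in 24.8% of the control cells and 23.4% of the mutant cells, while 187 control and 324 mutant cells lay within 2 percentage points of that limit, which was set after the values were seen. The low-share cells were shallower, with medians of 9449 UMIs against 24791 in the other control cells and 8260 against 20386 in the mutant library. They also had more mitochondrial RNA (medians of 4.27% against 1.42% in the control and 3.29% against 1.27% in the mutant library) and more of the nuclear RNA Malat1 (0.863% against 0.255%, and 0.917% against 0.296%).

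The fraction of these cells moved with the ratios of the neuron-like and mesothelium-like classes. Both values come from the same shares, so their agreement is no separate support. In neuron-like cells the limit of 8% lay near the median share per cell, 7.47% in the control and 9.56% in the mutant library. It therefore does not mark a separate group of cells in that class. Among neuron-like cells 58.5% of the control cells but 34.7% of the mutant cells were under 8%. Among mesothelium-like cells the order was the opposite, 7.14% of 70 control cells and 36.8% of 68 mutant cells. In EC-like cells the fractions were 21.8% and 20.9%. Depth differed between the libraries within these classes. Median UMIs per cell were 28114 in control and 14513 in mutant mesothelium-like cells, and 17044 and 13771 in neuron-like cells. With only cells of 8% or more kept, a choice that uses the measured share itself, the neuron-like log2 ratio was 0.12 and the mesothelium-like ratio 0.00. With only cells that had under 0.5% Malat1 they were 0.19 and -0.09.

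Single members mostly followed the family. A member was called when the counting interval of its ratio (counts per 1000000 UMIs, CPM, mutant over control) lay wholly beyond 1.2-fold. In EC-like cells 3 members were called higher and 1 lower, while 12.4% of the 2235 genes with at least 100 CPM in either library were called higher and 14.2% lower; 73 of the 77 members compared lay within 1.2-fold of the family as a whole. In mesenchyme-like cells 5 were called higher and 3 lower, 1 of the latter being Rpl39l, which lay under 100 CPM in both libraries and is not among the 77 (all genes 11.8% higher and 17.4% lower). In branchial muscle-like cells 1 was called higher and 2 lower (10.8% and 11.7%), in epithelium-like cells 1 and 2 (10.0% and 6.88%), and in cardiomyocyte-like cells 3 and 1 (13% and 11.9%). In these 5 classes the share of members called in either direction was thus below that of all genes. In neuron-like cells 44 of 77 were called higher and 0 lower (12.2% and 17% of all genes), with 76 intervals wholly above 0. With female-like cells alone (188 control and 247 mutant) 26 were called higher and 1 lower in this class. With Rps26-low female-like cells alone (47 and 67), a group described further on, 3 were called higher and 0 lower. In mesothelium-like cells 0 were called higher and 16 lower (22.6% and 16%), with 72 intervals below 0. In Rps26-low female-like cells of that class (30 control and 13 mutant) 1 was called higher and 0 lower. The share of all genes called was not computed in these female-like subsets. Fewer cells also widen the intervals, so these counts cannot be set against those of all cells. The median log2 ratio of the members was 0.34 in neuron-like cells, against 0.04 for all genes compared, and -0.24 in mesothelium-like cells, against -0.08. In EC-like cells it was 0.05, against -0.01.

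**Figure D2:**
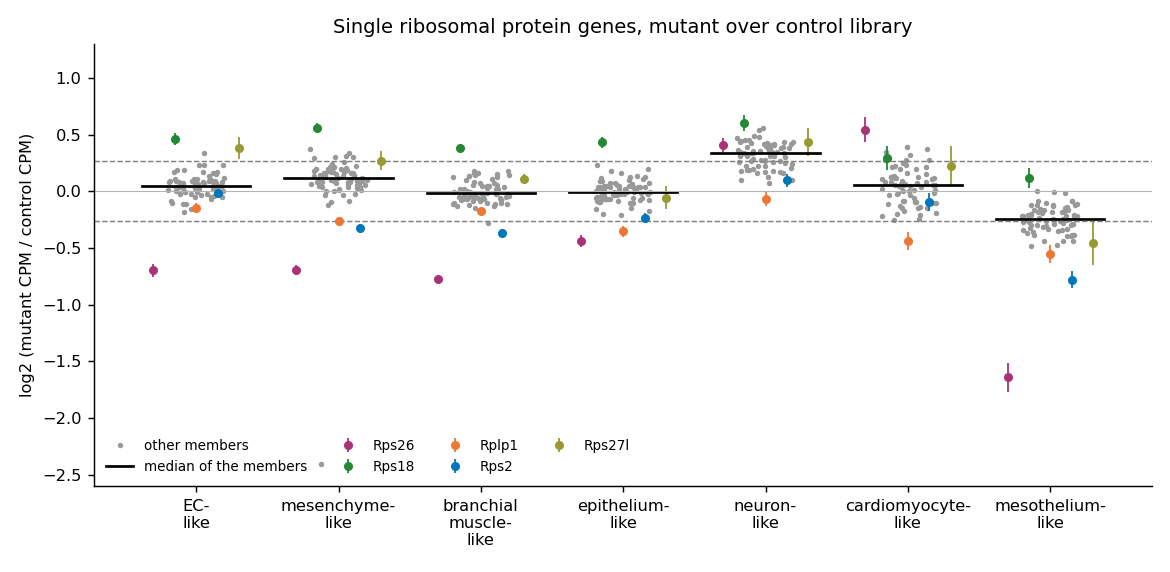
Log2 ratio of mutant over control CPM (y axis) of each member with at least 100 UMIs in a class (x axis). Black lines mark the median of the members, dashed lines 1.2-fold, and coloured points with counting intervals the members named in the key. Rps26 ranges from -1.64 in mesothelium-like to 0.54 in cardiomyocyte-like cells, and Rps18 lies above the median of the members in all 7 classes.

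Activating PIK3CA alleles are known from malformations of blood and lymphatic vessels, which endothelial cells line. Among the 77 members with at least 100 CPM in EC-like cells, which leaves out Rpl39l with 1 and 11 UMIs, the 5 with the highest ratios were Rps18, Rps27l, Rps6, Rpl34 and Rpl36. Rps18, a protein of the head of the small subunit, stood at 1052 CPM in the control and 1446 CPM in the mutant library, a log2 ratio of 0.46 (0.41 to 0.51). Rps27l, a paralog of Rps27 that is also a target of p53, stood at 296 and 385 CPM (0.38, 0.28 to 0.48). Rps6 stood at 1380 and 1749 CPM (0.34, 0.30 to 0.39). Rpl34 (0.24) and Rpl36 (0.23), both of the large subunit, did not pass the 1.2-fold limit. The 5 lowest were Rps26 with 1103 and 679 CPM (-0.70, -0.75 to -0.64), and then Rps4x (-0.18), Rpl26 (-0.16), Rplp1 (-0.14) and Rpl21 (-0.11), none of which was called. Rps26, which lies at the exit of the messenger RNA channel of the small subunit, was thus the lone EC-like member called lower. With female-like EC-like cells alone in both libraries the log2 ratio of Rps26 was 0.11. Female-like and male-like mutant cells also differed in their Rps26 levels, as described below, and the part of sex was not tested.

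Relative to the other members, that is, as UMIs of a gene per 1000 UMIs of the family, the intervals of 3 members were above 0 in all 7 classes (Rps18, Rpl36 and Rpl38) and those of 7 members below 0 (Rpl10a, Rpl26, Rpl7, Rplp0, Rplp1, Rps2 and Rps4x). Rps18 had within-family log2 ratios of 0.27 to 0.46 and Rplp1 of -0.47 to -0.15. Rps26 had no common direction: the ratio was -0.74 in EC-like, -0.79 in mesenchyme-like, -0.75 in branchial muscle-like, -0.43 in epithelium-like and -1.39 in mesothelium-like cells, but 0.51 in cardiomyocyte-like and 0.10 in neuron-like cells. Cardiomyocyte-like cells had little mitochondrial RNA (medians of 0.050% and 0.049% in the control and mutant library) and little Malat1 (0.012% and 0.025%). Over all kept cells these medians were 1.55% and 1.43% for mitochondrial RNA and 0.345% and 0.392% for Malat1.

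Rps26 was found at 2 levels within each library, which bears on its ratios above. In cells with at least 1000 family UMIs the number of Rps26 UMIs per 1000 family UMIs formed 2 groups with few cells between them, and a limit of 7, set after the values were seen, had 104 control and 50 mutant cells within 2 of it. In the control library 1106 of 2075 cells (53.3%) were Rps26-high, with a median of 12.98 per 1000, and the other cells had a median of 2.84. In the mutant library 424 of 2544 cells (16.7%) were Rps26-high, with a median of 21.7 against 2.34. The 2 levels ran through all classes: in the control library between 40.8% (cardiomyocyte-like) and 62.8% (epithelium-like) of the cells were Rps26-high. In the mutant library the lowest value was 4.88% (2 of 41 mesothelium-like cells), EC-like cells had 12.5%, and the highest values were 35.9% among neuron-like and 34.8% among cardiomyocyte-like cells. The classes with the most Rps26-high mutant cells were those where Rps26 was higher in the mutant library, and the class with the fewest had the lowest ratio. Both values come from the same Rps26 counts, so their agreement is no separate support. In the mutant library 35.7% of the female-like but 0.826% of the male-like cells were Rps26-high.

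**Figure D3:**
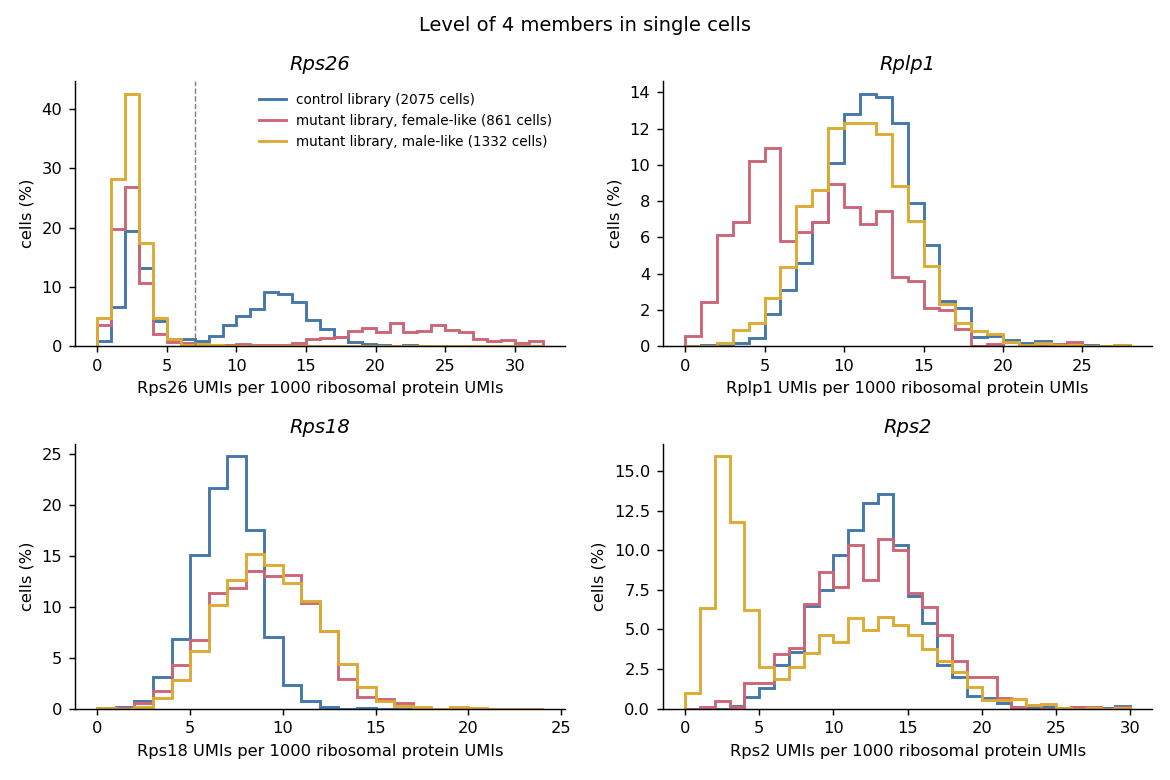
Percent of cells (y axis) at each level of Rps26, Rplp1, Rps18 and Rps2 in UMIs per 1000 family UMIs (x axis; cells beyond the axis are in the last bin), for the control library and for female-like and male-like cells of the mutant library. Rps26 has 2 levels in control and in mutant female-like cells, on either side of the dashed line at 7, Rplp1 a second, lower level in mutant female-like cells and Rps2 a second, lower level in mutant male-like cells.

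Rps26 was not alone in this. A dispersion index was computed for each member within each class and library, the variance of its count between cells over the variance that counting gives at the cells' family UMIs, so that 1 means counting error only. The median over members was 1.65 in the control and 1.64 in the mutant library. Rps26 ranked first in both, with medians over the classes of 12.8 and 32.4. Rps2, which encodes a core protein near the entry of the messenger RNA channel, came second in both, with 2.74 in the control and 8.82 in the mutant library. Rplp1, a protein of the stalk that recruits elongation factors, had 2.33 and 4.204, and Rps18 had 1.37, rank 75 in the control library, but 2.39, rank 7, in the mutant library. Rps2, Rpl38, Rpl10a, Rpl7 and the genes outside the family named below for these cells were singled out after their values were seen.

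**Figure D4:**
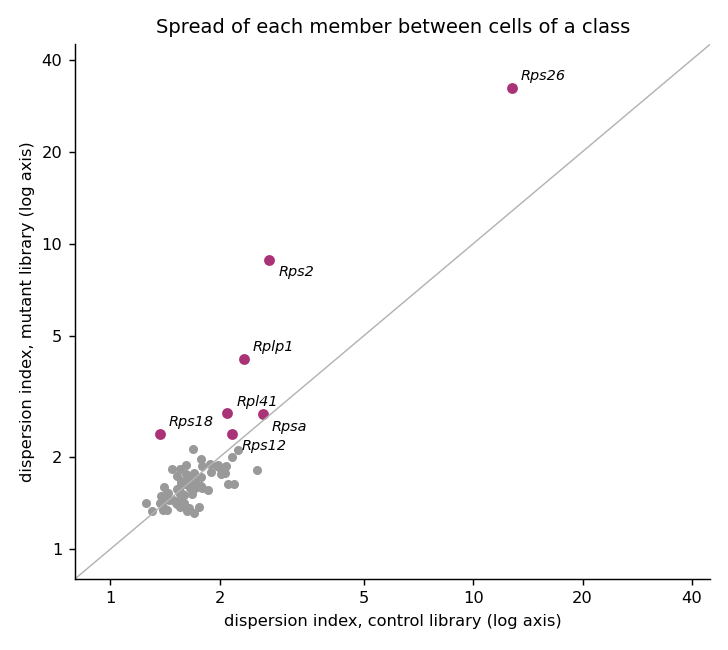
Dispersion index of each member (median over the 7 classes) in the control (x axis) and mutant library (y axis), both on log axes; the line marks equal values and the 8 members highest in the mutant library are in colour (Rpl39l, with a control value below 0.8, lies outside the axes). Rps26 is highest with 12.8 and 32.4, followed by Rps2 with 2.74 and 8.82.

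Rps2 had 2 levels in the male-like cells of the mutant library. At a limit of 6 per 1000 family UMIs, 585 of 1332 of these cells (43.9%) were Rps2-low, with a median of 2.94 per 1000 against 13.1 in the others. Of these male-like cells 178 lay within 2 of the limit. Only 2.17% of control female-like and 3.95% of mutant female-like cells were under the same limit. The Rps2-low male-like cells were as deep as the others, with medians of 23094 and 21668 UMIs, and they occurred in each class, from 24.5% of epithelium-like to 57.3% of cardiomyocyte-like cells.

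Sorted by these levels, the female-like and male-like cells of the mutant library with at least 1000 family UMIs fell into 4 groups. The groups also differed in members the sorting did not use. They leave out 351 such cells of unassigned sex, of which 30.2% were Rps26-high. Rplp1 stood at 4.54 per 1000 in female-like Rps26-high cells, and at 11.1, 11.9 and 11.2 per 1000 in female-like Rps26-low, male-like Rps2-low and male-like Rps2-high cells. Rps18 stood at 6.96 per 1000 in the female-like Rps26-high and 7.81 in the male-like Rps2-low cells, but at 10.4 in the female-like Rps26-low and 10.7 in the male-like Rps2-high cells. In the control library Rps18 was at 7.17 in Rps26-high and 7.18 in Rps26-low cells, and Rplp1 at 12.3 and 12.7. Rps18 was thus above both control groups by over 3 per 1000 in 2 of the 4 mutant groups, and Rplp1 was lowest in another.

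The same held inside the EC-like class. There Rps18 was at 6.89 and 6.75 per 1000 in Rps26-high and Rps26-low control cells, and in the mutant library at 6.59 in female-like Rps26-high (52 cells) and 7.02 in male-like Rps2-low cells (75), against 9.65 in female-like Rps26-low (127) and 10.1 in male-like Rps2-high cells (193). The groups with high Rps18 also had high levels of Hspa1a and Hspa1b, which encode inducible HSP70 chaperones. Over the 7 classes Hspa1a was at 592 CPM in female-like Rps26-low and 496 CPM in male-like Rps2-high cells. It was at 15.7 and 18.9 CPM in the other groups of the mutant library and 20.6 and 19.99 CPM in those of the control library. These sums hide differences between classes. Among all male-like Rps26-low cells Hspa1a ranged from 24.3 CPM in cardiomyocyte-like and 43.0 CPM in neuron-like to 734 CPM in epithelium-like cells. By the GENCODE annotation (GRCm38) Rps18, Hspa1b and Hspa1a all lie on chromosome 17, at 33951999 to 33956001, 34956436 to 34959238 and 34969190 to 34972156, and Rps2 lies on the same chromosome at 24718116 to 24721929, while Rps26 is on chromosome 10 and Rplp1 on chromosome 9. The labels tie no cell to an embryo, and the mutant library pooled 3 embryos, fewer than its groups. How the groups relate to embryos of the pool, and what sets the levels apart, was not tested.

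Few other genes parted the cells by over 2-fold in the same direction in every class. Smaller differences, such as that of Rps18, are not counted here. In the control library, of 4663 genes with at least 20 CPM on one side in each of the 7 classes, 2 (0.0429%) had a counting interval wholly beyond 2-fold in the same direction in every class between Rps26-high and Rps26-low cells: Rps26 itself, by which the cells were sorted, and the histone gene Hist1h2ad, with a median log2 ratio of 2.64. Among female-like mutant cells 4 of 5477 genes (0.073%) did so in the 5 classes with 20 or more cells on both sides: Rps26, again by construction, and Rplp1 (-1.43), Hspa1a (-4.92) and Hspa1b (-4.89). Between Rps2-low and Rps2-high male-like cells, 2 of 4534 genes (0.0441%) did so in 6 classes, Rps2 by construction and Ddit4 (-1.57), a stress-induced inhibitor of mTORC1.

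A second kind of difference set all 4 mutant groups apart from both control groups. Rps6 in EC-like cells was at 8.71 and 9.05 per 1000 family UMIs in the Rps26-high and Rps26-low control cells, and at 10.4, 11.1, 11.5 and 10.9 in the 4 groups of the mutant library, so that all groups of the mutant library lay above both of the control library. In branchial muscle-like cells Rps6 showed no such order, with 9.11 and 9.28 in the control and 8.72 to 9.47 in the mutant groups. Rpl26, a large-subunit protein, was lower in all 4 mutant groups over the 7 classes, with 10.4 to 10.9 per 1000 against 12.6 and 12.5 in the control groups. Rps4x, with 16.4 to 16.7 against 18.1 and 18.7, and Rplp0, with 18.8 to 19.5 against 20.9 and 21.1, followed the same order. In EC-like cells Rpl34 (14.9 to 16.1 against 14.2 and 13.51) and Rps27l (2.23 to 3.04 against 2.03 and 1.84) were above both control groups in all 4 mutant groups as well. Rps27l also differed between the mutant groups. Its median log2 ratio of Rps2-low over Rps2-high male-like cells was 0.20 over 6 classes (0.03 to 0.33). These groups share their library and are not replicates.

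Rps26-low female-like cells of both libraries were also compared alone, which gave 6 classes, the mesothelium-like one with 30 control and 13 mutant cells. Rps18 had a within-family interval above 0 in 6 of 6 (median log2 ratio of mutant over control 0.53, range 0.49 to 0.58). This mutant group had high Rps18 (10.4 per 1000 family UMIs), so the direction of Rps18 follows from the choice of cells. In Rps26-high female-like cells Rps18 stood at 6.96 in the mutant and 7.17 in the control library. The classes are parts of the same group of cells and not replicates. Rpl26 (-0.21), Rplp1 (-0.20), Rps4x (-0.16) and Rplp0 (-0.15) had intervals below 0 in 6 of 6. Rps26, whose level was limited by the choice of cells, had a median of -0.31, and Rps2 of -0.06.

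The acidic stalk of the large subunit is formed by Rplp0, which anchors it, and by Rplp1 and Rplp2, which bind as dimers. In EC-like cells Rplp0 stood at 3211 and 2971 CPM, Rplp1 at 1701 and 1539 CPM and Rplp2 at 1706 and 1900 CPM in the control and mutant library. Within the family the interval of Rplp2 was above 0 in 5 of the 7 classes and below 0 in 1, the mesothelium-like class, where all 3 stalk genes were lower. Rpsa, which is both a small-subunit protein and known as a laminin-binding protein, stood at 3620 and 3695 CPM, a log2 ratio of 0.03. Rps27a, translated as a fusion with ubiquitin, had 3297 and 3328 CPM (0.01). Rpl5 and Rpl11, which with 5S RNA bind MDM2 when ribosome assembly is disturbed, had 816 and 837 CPM and 2607 and 2669 CPM, ratios of 0.04 and 0.03.

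The members Rpl10, Rpl36a, Rpl39 and Rps4x lie on the X chromosome. Since the libraries differ in the sex of their cells, male-like and female-like Rps26-low cells were compared within the mutant library in 5 classes. The median log2 ratio of male-like over female-like cells, within the family, was 0.02 for Rpl10, 0.04 for Rpl36a, 0.02 for Rpl39 and -0.01 for Rps4x. Rps4x was at -0.22 within the family in EC-like cells between the libraries, and the part of sex in that value was not tested.

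The paralogs were rare except Rps27l. Its parent Rps27 had 1171 and 1231 CPM in EC-like cells (0.07). Beside the EC-like ratio of 0.38 for Rps27l, Cdkn1a, the cell cycle inhibitor that is the best known p53 target, stood at 21.9 and 101 CPM there (2.21, 1.87 to 2.58), and of the 12 p53 targets listed, which do not include Rps27l, 4 were called higher and 0 lower in that class, with a median of 0.60. Of all 14163 genes with at least 20 UMIs there, the minimum used for such lists, 8.53% were called higher and 10.5% lower. The list was chosen with earlier results known and supports nothing about Rps27l. In epithelium-like cells, where Cdkn1a was at 26.3 and 80.6 CPM, Rps27l was at 329 and 317 CPM. Rpl39l, a paralog of Rpl39 known from male germ cells, had 89 of its 102 UMIs of kept control cells in the mesenchyme-like class, in 41 of 586 cells (7.00%), against 1 of 147 EC-like cells (0.680%) at medians of 15334 and 20203 UMIs. In mutant mesenchyme-like cells 8 of 522 (1.53%) had 13 UMIs in all. Of the 50 Rpl39l UMIs of kept mutant cells, 24 lay in 3 cells of an unnamed cluster, up to 13 in a single cell, and 11 in EC-like cells. The parent gene Rpl39 had 12.4 and 13.7 UMIs per 1000 family UMIs in EC-like cells of the control and mutant library.

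Members differed little between classes once the size of the family was set aside. Of the 77 members with at least 1000 UMIs, 76 ranged over less than 1 on the log2 scale across the 7 classes in both libraries, with a median range of 0.29 in the control and 0.30 in the mutant library. The highest class was the same in both libraries for 40 members and the lowest for 43. Among the members with the widest range and the same highest class in both libraries were Rps27l, Rps27, Rps20, Rpl7a, Rpl28, Rps12 and Rpl18, all structural proteins of their subunit. Rps27l was highest in cardiomyocyte-like cells (2.64 and 3.03 per 1000 family UMIs in the control and mutant library). Rps27 was highest in mesenchyme-like cells (9.36 and 9.60) and lowest in cardiomyocyte-like cells (6.53 and 6.66). Rps20 and Rpl28 were highest in EC-like cells, with 24.5 and 22.3 for Rps20 and 21.4 and 22.4 for Rpl28, and both were lowest in neuron-like cells. Rpl7a was highest in neuron-like cells (10.6 and 10.8). Rps12 (18.4 and 17.6) and Rpl18 (14.8 and 14.5) were highest in branchial muscle-like cells. Classes were formed without these genes, so their profile did not shape the classes.

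**Figure D5:**
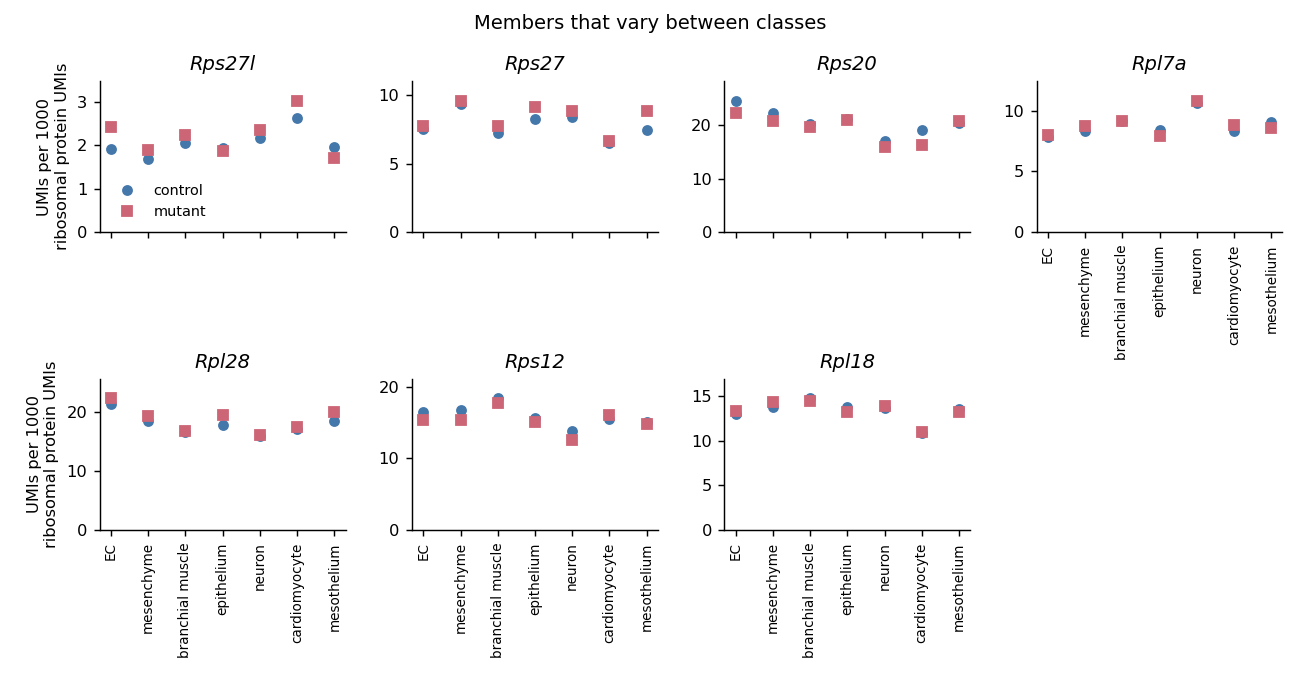
UMIs per 1000 family UMIs (y axes, from 0) of 7 members that vary widely between the 7 classes (x axis), control library as circles and mutant library as squares. Each panel has the same highest class in both libraries, such as cardiomyocyte-like cells for Rps27l with 2.64 and 3.03.

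By UMIs over both libraries the highest members included Rpl13 (604339), Rps27a (534375), Rps24 (533072) and Rpsa (528717), and the 5 lowest were Rpl39l (163), Rps27l (50910), Rpl5 (126737), Rpl31 (146855) and Rps25 (151530). These are UMIs read from the 5′ end and not scaled by length, so their order describes counted molecules. Many members have processed pseudogenes, and reads that match several places may be lost or misassigned. Of all 50-base windows of a member's GENCODE transcripts a median of 23.9% also occurred in a transcript of another gene, with 84.0% for Rpl35, 60% for Rplp1, 43.8% for Rps6, 43.0% for Rps2, 23.7% for Rps18 and 16.2% for Rps26. Levels of members with such copies are uncertain.

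Among the 3 classes given here, most other translation lists had, like the members, their highest median in neuron-like and their lowest in mesothelium-like cells. The regulators of TOP translation were the exception. Cardiomyocyte-like cells had higher medians than neuron-like cells for elongation factors (0.49), ribosome biogenesis (0.38), initiation factors (0.19) and mitochondrial ribosomal protein genes (0.24). Their medians were lower than the neuron-like ones for the members (0.06), the genes outside the symbol rule (0.06), other TOP messages (0.07) and TOP regulators (-0.18). The median of all genes compared in cardiomyocyte-like cells was 0.08. A median over genes need not follow the summed RNA of a list. Summed over the elongation factors, cardiomyocyte-like cells had 12170 CPM in the control and 11212 CPM in the mutant library. Among the 8 ribosomal protein genes outside the symbol rule, the median log2 ratio was -0.02 in EC-like, 0.30 in neuron-like and -0.32 in mesothelium-like cells, and Fau, a ubiquitin-like fusion to a small-subunit protein, was at 2389 and 2898 CPM in EC-like cells (0.28). The 36 initiation factors had medians of 0.03, 0.17 and -0.21 in these 3 classes, with 3 called higher in EC-like cells (Eif1b, Eif2s2 and Eif4a2) and 0 lower, against the 8.53% and 10.5% of all EC-like genes, so that the count was near that background. The 42 ribosome biogenesis genes had -0.19, 0.13 and -0.36, with 0 called higher and 1, Gar1, lower in EC-like cells. The 78 mitochondrial ribosomal protein genes, whose products serve the separate ribosome of the organelle, had -0.03, 0.17 and -0.39. Translation elongation factors had 0.06, 0.08 and -0.23, and TOP messages outside the ribosome 0.03, 0.14 and -0.15. Among the 10 regulators of TOP translation, with medians of -0.22, -0.09 and 0.08, Eif4ebp1, which encodes an inhibitor of cap-dependent initiation, was at 113 and 277 CPM in EC-like cells (1.298, 1.14 to 1.46) and at 53.8 and 125 CPM in epithelium-like cells (1.21). Eif4ebp2, at 77.4 and 45.6 CPM, and Mtor, at 40.7 and 26.6 CPM, were called lower in EC-like cells.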

How the data were processed

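Per the labels and the study's methods, cells of E13.5 embryos were sorted on eYFP and sequenced with a 10x 5′ kit, and the authors made the deposited UMI counts per gene and cell with Cell Ranger 7.1.0 on mm10 (GRCm38). Counts were clustered with Seurat 5.3.0 in R 4.3.3 (CCA integration, 2000 variable genes, 30 components, resolution 0.3, 15 clusters, 309 genes including the members left out). Classes were named from marker lists by a rule adjusted after the clusters were seen: at least 3 markers raised, and no other list close. Clusters that failed it, 545 control and 308 mutant cells, stayed unnamed. Scrublet (scanpy 1.11.5) marked 2 control and 10 mutant cells, too few to be usable, so doublets were kept in the main results. UMIs were summed by class and library. Ratios have conditional exact binomial (Clopper-Pearson) intervals at 95%, which cover counting error only. They were tested on simulated counts that vary by counting alone, so that test does not bear on the spread between cells. A count of 0 was read as under 3 UMIs. Members named were the 5 highest and 5 lowest by UMIs, the 5 highest and 5 lowest EC-like ratios, the 8 widest class profiles, paralogs with parents, stalk and X-linked genes, Rpsa, Rps27a, Rpl5, Rpl11 and Rps6. Values of a few genes that this rule takes in are not reported here. The members and lists were chosen with earlier results of these data known. Alternatives covered doublets, clustering, filters, depth, sex, phase, denominators and scaling (including edgeR 4.0.16 TMM).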

Additional observations from a re-analysis of the deposited data

Results flagged for a closer look

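The family's share of UMIs had opposite directions in 2 classes, each with a counting interval beyond 0.2 on the log2 scale: the ratio of mutant over control was 0.31 in neuron-like cells and -0.26 in mesothelium-like cells. The difference between the classes was not tested, since each class has 1 library of each genotype. The fractions of low-share cells given above, computed from the same shares, moved with it.

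Rps26 within the family was beyond 1.2-fold in opposite directions: 0.51 in cardiomyocyte-like cells, but -0.74 in EC-like, -0.75 in branchial muscle-like, -0.43 in epithelium-like, -0.79 in mesenchyme-like and -1.39 in mesothelium-like cells. This difference was not tested either. The cardiomyocyte-like cells also had far less mitochondrial RNA and Malat1 than the kept cells as a whole, as given above. Of the 54 control cells of that class, 43 were of unassigned sex. In female-like EC-like cells alone the CPM ratio was 0.11. The percentage of Rps26-high cells in the mutant library, computed from the same counts, was 4.88% in mesothelium-like and 34.8% in cardiomyocyte-like cells.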

How the results depend on the processing

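Ratios of the family's share (log2, mutant over control) are given in the order EC-like, mesenchyme-like, branchial muscle-like, epithelium-like, neuron-like, cardiomyocyte-like and mesothelium-like. They were 0.024, 0.096, -0.018, -0.038, 0.35, -0.0097 and -0.25 without the highest Scrublet scores. The values were 0.039, 0.060, -0.023, -0.025, 0.37, 0.028 and -0.24 without integration. They came to 0.014, 0.091, -0.022, -0.012, 0.31, 0.029 and -0.26 at resolution 0.8. The values were 0.039, -0.013, -0.078, -0.048, 0.42, 0.043 and -0.20 with classes from marker counts per cell. They came to 0.033, 0.050, -0.022, -0.037, 0.32, 0.020 and -0.20 with 1000 or more genes. The values were 0.030, 0.086, -0.066, -0.058, 0.30, -0.017 and -0.21 at a mitochondrial limit of 5%. Ratios of 0.050, 0.16, 0.054, -0.0099, 0.51, 0.0064 and -0.17 in cells of 10000 to 30000 UMIs were found. Ratios of 0.022, 0.091, -0.024, 0.050, 0.27, 0.21 and -0.25 in female-like cells were found. In that setting the cardiomyocyte-like value rested on 11 control and 12 mutant cells, and the mesothelium-like value on 68 and 23. Ratios of -0.026, 0.064, -0.090, 0.14, 0.36, 0.010 and -0.29 in cells scored G1 were found. Further values were -0.0097, 0.12, 0.032, 0.062, 0.47, -0.021 and -0.40 as a mean over cells and 0.035, 0.11, -0.036, -0.021, 0.34, 0.026 and -0.30 with members, mitochondrial and hemoglobin genes out of the denominator. In alternatives chosen after seeing the data they were 0.026, 0.080, -0.048, -0.075, 0.19, 0.038 and -0.091 with Malat1 under 0.5%. With cells chosen on the share they were 0.0086, 0.086, -0.049, -0.026, 0.12, -0.0065 and 0.00094 (a share of 8% or more). The last such set was -0.014, 0.11, 0.0070, -0.069, 0.10 and -0.026 in Rps26-low female-like cells, where cardiomyocyte-like cells were too few for a value. The neuron-like ratio stayed above 0 in all of these.

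EC-like members called higher numbered 3 in the main result, 6 with the TMM factor and 6 with the median ratio of genes, 0 at a 1.5-fold limit, 1 in G1 cells and 1 in Rps26-low female-like cells; members called lower numbered 1, which was Rps26 except in female-like cells, where it was Rplp1 at -0.40, and 0 in Rps26-low female-like cells. The EC-like Rps26 ratio, -0.70 in the main result, reversed to 0.11 in female-like cells and was -0.38 in Rps26-low female-like cells, and the cause was not tested. Summed over the classes, 57 calls higher became 88 (TMM), 0 (1.5-fold) and 87 (10000 to 30000 UMIs), and 25 lower became 58 (TMM), 49 (median ratio), 6 (1.5-fold) and 12 (10000 to 30000 UMIs). The log2 shift subtracted from each ratio under TMM was -0.12 in EC-like, -0.11 in neuron-like, -0.15 in cardiomyocyte-like and 0.14 in mesothelium-like cells. With the median ratio it was -0.10 in EC-like cells. Subtracting a negative shift raised the ratios of a class, and subtracting a positive one lowered them. The share of all genes called was not computed under these alternatives, and settings with fewer cells have wider intervals. Rps26-high control cells were 55.7% at a limit of 5 and 47.1% at 10, Rps26-high mutant cells 14.7% with 3000 or more family UMIs, and Rps2-low male-like cells 40.0% at 4.5 and 47.1% at 7.5. Except where a limit shows it, the cause was not tested. No paired analysis was possible because each genotype has 1 library, which also leaves no replicate to leave out. Depth limits rare members such as Rpl39l.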

Other observations

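Cells of the female-like Rps26-high group of the mutant library had a family share of 16.1% over the 7 classes, against 18.6%, 18.1% and 19.2% in the female-like Rps26-low, male-like Rps2-low and male-like Rps2-high groups and 19.4% and 19.3% in the Rps26-high and Rps26-low control cells; that group held 94 neuron-like cells among its 281. Within branchial muscle-like cells the corresponding values were 20.2%, 22.9%, 21.8%, 22.9%, 23.0% and 22.8%. Rps27rt, a further copy of Rps27 outside the symbol rule, was at 30.5 CPM in control and 18.3 CPM in mutant EC-like cells (log2 ratio -0.74, -1.08 to -0.39). Hepatoblast-like cells, found in the mutant library alone (47 cells), had a family share of 17.1%.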
